A study of Mus musculus with 4 samples.

Results

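The genes described here are 32 genes of cell cycle entry and DNA replication, taken by symbol from a table of 45777 mouse genes. They hold the D-type and E-type cyclins with their kinases, 3 brakes on entry, the transcription factors E2f1 and Myc, 8 genes of origin licensing, 4 of DNA synthesis and 7 of G2 and mitosis. All 32 symbols were found. They were measured by RNA sequencing in primary hepatocytes, the metabolic cells of the liver put into culture, from Dusp6 knockout mice (KO) or wild-type mice (WT). Dusp6 encodes a phosphatase that inactivates the kinase ERK. Cells were cultured for 3 h and then either left untreated or given palmitic acid at 0.5 mM with oleic acid at 1 mM, for 24 h in both cases, as the labels' protocols describe. There are 4 groups with 1 library in each: untreated WT, untreated KO, and WT and KO given fatty acids, called treated from here on. The labels give the genotype only as Dusp6 knockout or wild type, and the sources used here give no strain, age or number of animals.

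In a quiescent hepatocyte, growth factor signals raise the D-type cyclins, which with Cdk4 and Cdk6 phosphorylate the retinoblastoma protein Rb1 and so release the E2F factors. E2F then drives the genes for cyclin E, for the MCM helicase that is loaded at origins, and for nucleotide and DNA synthesis. Cyclin A, cyclin B, Cdk1, Plk1 and Top2a act later, in G2 and mitosis. Adult hepatocytes are mostly out of the cycle, enter it after loss of liver mass, and move partway towards it when they are isolated and plated.

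The libraries held 85423156 to 97364292 reads. Levels are given as CPM, the reads of a gene relative to the scaled total of its library, with scaling by the trimmed mean of M values (TMM), or, between genes, as FPKM, which is also scaled to transcript length. Dusp6 itself had 11235 reads in untreated WT and 22333 in treated WT, against 394 and 348 in the KO libraries, so that the labels and the targeted gene go together. Hepatocyte markers, 7 of 7 past the filter, summed to 12612 to 20039 CPM. Of 32 members, 29 passed a filter of 0.5 CPM in at least 1 library, as did 15277 genes in all. Ccna2, Ccnb1 and Plk1 did not pass. With 1 library per group no difference between 2 libraries has a replicate check, and a rule of size, 2-fold or more in CPM, stands in place of a test. Intervals are 95% exact binomial intervals of the reads. They cover counting error alone, since reads without molecular identifiers are not independent. In these bulk samples, fewer cells that express a gene and less RNA per cell cannot be told apart.

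Per transcript length, Pcna, the sliding clamp of the replication fork, was the most abundant member, with 54.5 to 73.4 FPKM over the 4 libraries. Cdk4 followed at 31.7 to 48.3 FPKM, then Myc at 20.1 to 33.1 FPKM and Mcm6 at 8.77 to 25.9 FPKM. The range of Pcna lay above that of Cdk4, whereas the ranges of Cdk4 and Myc overlapped, and so did those of Myc and Mcm6. Members at 1 FPKM or above numbered 20 in untreated WT, 21 in untreated KO, 18 in treated WT and 21 in treated KO. The other end of the order held the genes of G2 and mitosis. In all, 10 of 32 members stayed under 1 FPKM in every library, among them all 7 G2 and mitosis genes apart from Ccnb2, which reached 1.08 FPKM. The same low range held Ccnd1, Ccnd2, E2f1 and Cdkn2c.

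**Figure D1:**
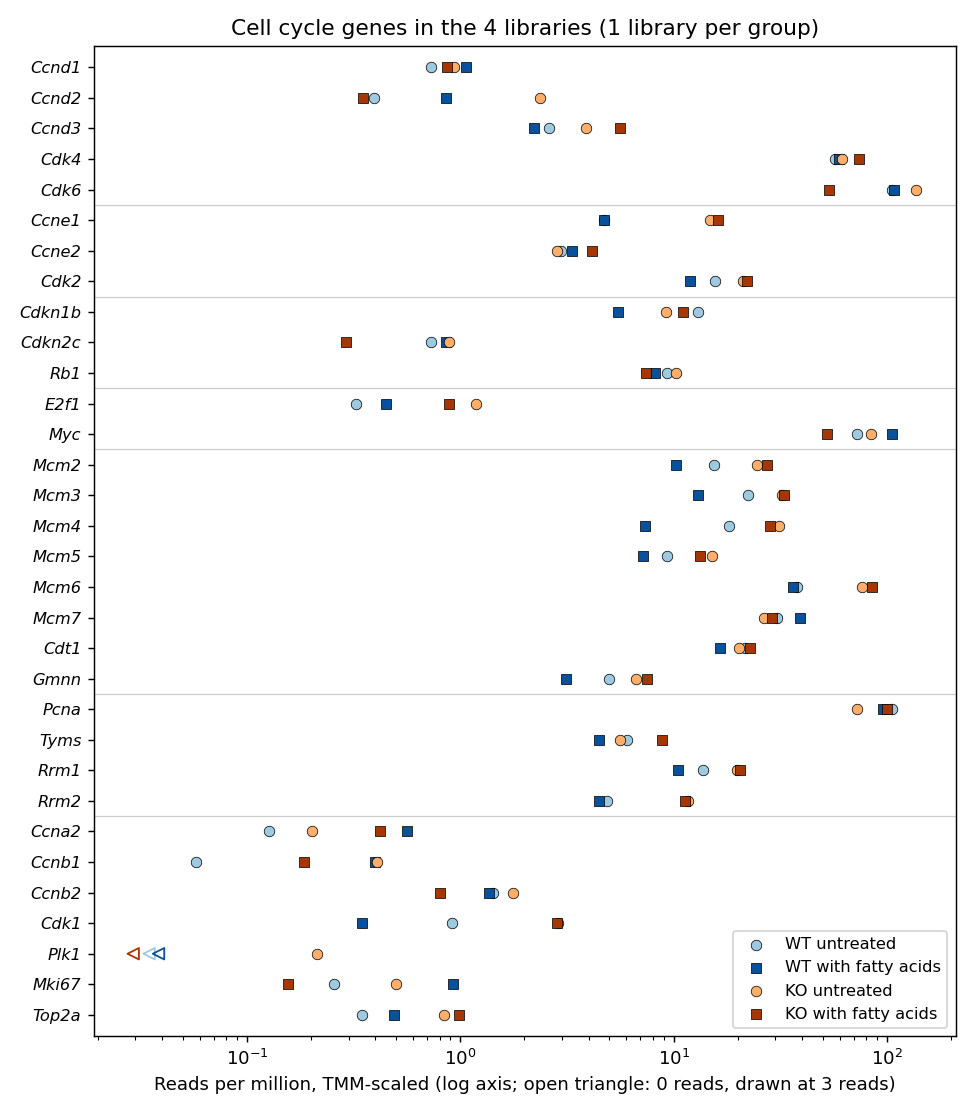
TMM-scaled CPM of each member (log axis, 1 point per library), in blocks by role. Circles are untreated and squares fatty acid libraries, blue WT and orange KO. The 2 KO libraries of Ccne1 (14.8 and 16.2 CPM) and Rrm2 (11.7 and 11.3 CPM) lie together above the 2 WT libraries, and Plk1 has reads in untreated KO only.

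Ccne1, Mcm6, Rrm2, Cdk1 and Top2a had 2-fold or more CPM in KO than in WT, both without and with fatty acids. Without fatty acids, 7 of the 29 members past the filter were higher in KO by 2-fold or more and 0 were lower, where 10.2% of all genes were higher and 7.10% lower. The 7 were Ccnd2, Ccne1, E2f1, Mcm6, Rrm2, Cdk1 and Top2a. With fatty acids, 11 of 29 were higher and 5 lower, against 10.7% and 15.7% of all genes. The balance of these counts moved with the scaling, to 16 higher and 3 lower with library totals, 7 and 0 on deposited log2(FPKM + 1), and 4 and 1 on that scale relative to the median gene. Of all 15277 genes, 2609 were higher and 1844 lower with library totals, 1159 and 440 on deposited log2(FPKM + 1), and 370 and 965 relative to the median gene, beside 1633 and 2401 with TMM. The median log2 difference over the 29 members was 0.45 untreated and 0.89 with fatty acids, beside 0.01 and 0.03 over all genes. Counted by order alone, both KO libraries lay above both WT libraries for 15 of 29 members, against 25.0% of all genes. Under the other scalings the order held for 13 to 18 members, from 13 where 17.8% of all genes had it (FPKM centred on the median gene) to 18 where 36.3% (library totals) or 34.7% (deposited FPKM) did. The reverse order held for 1 member, Mcm7, against 23.3% of all genes. The 15 were Ccnd3, Cdk4, Ccne1, Cdk2, E2f1, Mcm2, Mcm3, Mcm4, Mcm5, Mcm6, Gmnn, Rrm1, Rrm2, Cdk1 and Top2a. The 2 KO-WT pairs have no library in common, but the libraries of each genotype may share their animals, which the labels do not say.

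**Figure D2:**
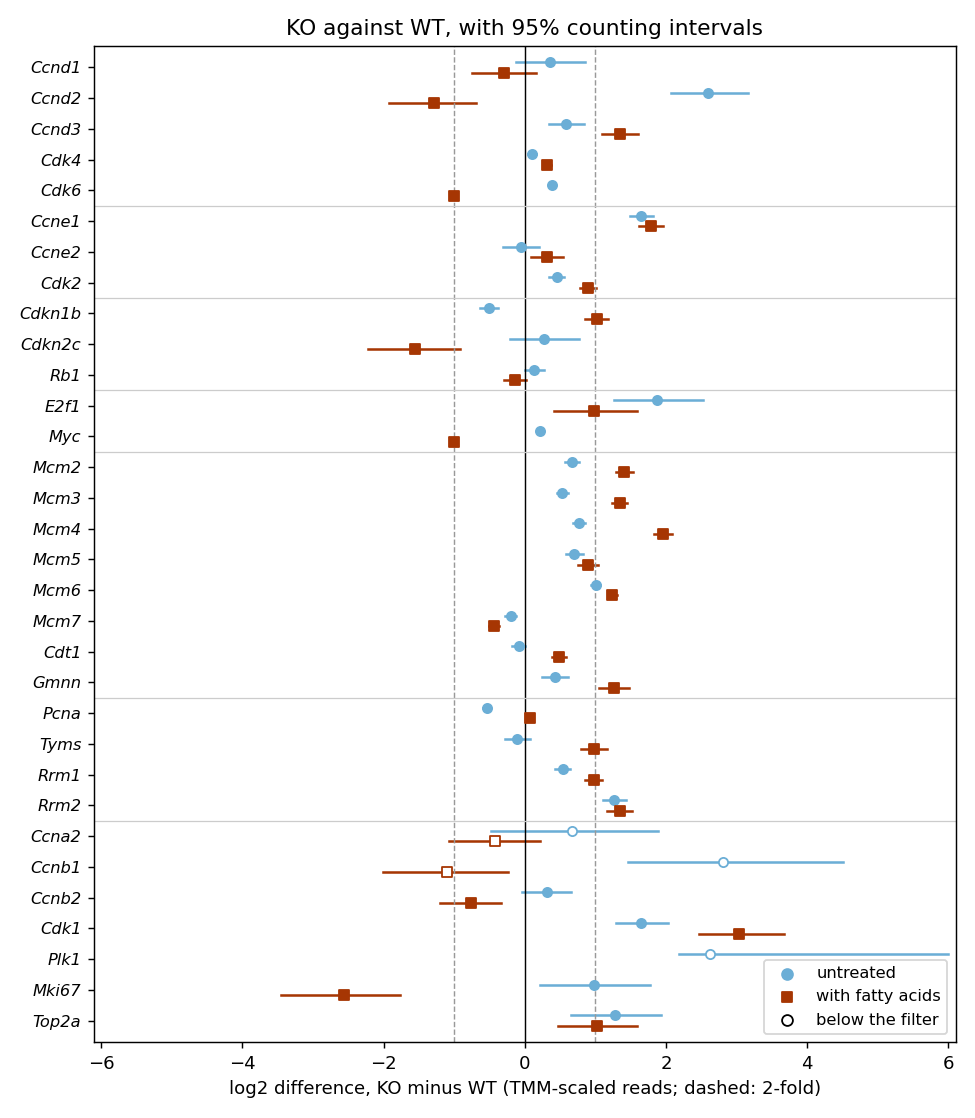
Log2 difference in TMM-scaled reads, KO minus WT, for each member, with 95% counting intervals. Circles are untreated and squares fatty acid pairs, open symbols lie below the filter, dashed lines mark 2-fold, and the interval of Plk1 has no upper end. Mcm4 lies at 0.77 untreated and 1.95 with fatty acids, and Ccnd2, Cdk6, Cdkn2c, Myc and Mki67 lie to the left of the line with fatty acids.

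One model could be tested, an edgeR quasi-likelihood fit over all 4 libraries in which the effects of genotype and of fatty acids add up. It has 1 residual degree of freedom, and an interaction between them would count as noise. Its p-values were adjusted over 15277 genes by the Benjamini-Hochberg method, and they measure only the spread between these libraries. For KO against WT, 5 of 29 members passed an adjusted p of 0.05, all higher in KO, where 5.47% of all genes were called, 2.76% higher and 2.71% lower. The 5 were Ccne1, Mcm4, Mcm6, Cdk1 and Rrm2, and 11 members had an unadjusted p under 0.05. DESeq2 called the same 5. With the looser filter of 10 reads in total, edgeR called 0 of 32 members (9 at an unadjusted p under 0.05). The smallest adjusted p among the members was then 0.0608, for Ccne1. For neither of these fits is the share over all genes given here. For fatty acids against untreated, edgeR called 0 members (1 at an unadjusted p under 0.05) and DESeq2 called 0, where edgeR called 0.0393% of all genes, 0.0131% higher and 0.0262% lower.

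The D-type cyclins bind Cdk4 and Cdk6 and carry the first step of entry. Ccnd1, the D cyclin that rises when hepatocytes leave quiescence, was low in every library, with 63 reads in untreated WT, 88 in untreated KO, 83 in treated WT and 89 in treated KO. Per length that is 0.168 to 0.232 FPKM. Its KO-to-WT ratio was 1.28 untreated (0.919 to 1.80) and 0.816 with fatty acids (0.598 to 1.11), and both intervals include no difference. Ccnd3 was the most abundant D cyclin, with 2.60 CPM in untreated WT, 3.90 in untreated KO, 2.22 in treated WT and 5.63 in treated KO. It was higher in KO by 1.5-fold (1.27 to 1.78) untreated and 2.54-fold (2.14 to 3.02) with fatty acids, and the edgeR fit gave an adjusted p of 0.252. Ccnd2 had 34 reads in untreated WT, 223 in untreated KO, 67 in treated WT and 36 in treated KO. Its high value was thus a single library, untreated KO. The KO-to-WT ratio was 6.03 (4.19 to 8.93) without fatty acids, whereas with them KO was 2.45-fold lower (1.61 to 3.78).

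The partner kinases differed from each other. Cdk4 stood at 57.2 CPM in untreated WT, 61.4 in untreated KO, 59.7 in treated WT and 74.3 in treated KO, with KO-to-WT ratios of 1.07 and 1.24. Cdk6 stood at 106 CPM in untreated WT, 138 in untreated KO, 108 in treated WT and 53.6 in treated KO. The last of these was the one low library, 2.01-fold below WT (1.94 to 2.08), just past the 2-fold line. It was inside that line with library totals, on log2(FPKM + 1) as deposited or relative to the median gene, and once adjusted for GC content and length, and the log2 difference ran from -1.08 to -0.59 over all settings. Per length, Cdk4 exceeded Cdk6 by 4.56-fold in untreated WT and 3.77-fold in untreated KO. With fatty acids the ratio was 4.66 in WT and 11.5 in KO.

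Cyclin E with Cdk2 commits the cell to S phase. Ccne1 gave 4.73 CPM in untreated WT, 14.8 in untreated KO, 4.70 in treated WT and 16.2 in treated KO. The 2 WT libraries differed by less than counting error (ratio 0.993, 0.860 to 1.15), and both KO libraries lay far above them. The KO-to-WT ratio was 3.14 (2.81 to 3.51) untreated and 3.45 (3.08 to 3.87) with fatty acids. The additive edgeR fit gave a log2 difference of 1.72 with an adjusted p of 0.00267, the smallest among the members. Ccne2, the other E cyclin, did not share this pattern, with 2.97, 2.86, 3.35 and 4.15 CPM in the same order of libraries. The FPKM of Ccne1 over Ccne2 was 2.44 in untreated WT, 8.0 in untreated KO, 2.17 in treated WT and 5.90 in treated KO. Cdk2 itself was at 15.6 CPM in untreated WT, 21.3 in untreated KO, 11.9 in treated WT and 22.1 in treated KO. Its KO-to-WT ratios of 1.37 and 1.86 stayed inside 2-fold.

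The brakes had no common pattern. Cdkn1b, which encodes the inhibitor p27 of cyclin E-Cdk2, stood at 13.0 CPM in untreated WT, 9.20 in untreated KO, 5.49 in treated WT and 11.1 in treated KO. The low library was treated WT, and KO was lower than WT without fatty acids (ratio 0.705, 0.644 to 0.771) and higher with them (2.03, 1.81 to 2.27). The second ratio was inside 2-fold on log2(FPKM + 1) as deposited or relative to the median gene, and on log2(FPKM + 0.1) relative to the median gene. Cdkn2c encodes the inhibitor p18 of Cdk4 and Cdk6. It had 63 reads in untreated WT, 83 in untreated KO, 67 in treated WT and 30 in treated KO, a KO-to-WT difference of 2.94-fold lower (1.88 to 4.68) with fatty acids. Rb1 stayed at 7.45 to 10.2 CPM, with KO-to-WT ratios of 1.10 and 0.907. None of the 3 was called by edgeR, with adjusted p of 0.823, 0.831 and 0.999 in that order.

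The transcription factors of entry differed from each other. E2f1, an activating E2F and itself an E2F target, had 28 reads in untreated WT, 111 in untreated KO, 35 in treated WT and 91 in treated KO. Both KO libraries lay above both WT libraries, by 3.65-fold (2.39 to 5.74) untreated and 1.98-fold (1.33 to 3.01) with fatty acids, the second just under 2-fold. At these few reads the edgeR adjusted p was 0.484. Myc was one of the most abundant members, with 72.4 CPM in untreated WT, 84.1 in untreated KO, 106 in treated WT and 52.6 in treated KO. Its highest library was treated WT and its lowest treated KO, a difference of 2.01-fold (1.94 to 2.08). That difference was inside 2-fold with library totals and on log2(FPKM + 1) as deposited, and the log2 difference ran from -1.13 to -0.69 over all settings.

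Origin licensing loads the MCM2-7 ring, a hexamer of 6 different subunits, onto DNA before S phase, with Cdt1 as loader and geminin (Gmnn) as the inhibitor of Cdt1. Mcm2 stood at 15.5 CPM in untreated WT, 24.7 in untreated KO, 10.3 in treated WT and 27.4 in treated KO. Mcm3 had 22.3, 32.2, 13.0 and 33.0 CPM in the same order, and Mcm4 had 18.3, 31.1, 7.33 and 28.4 CPM. For these 3 genes the KO libraries were close to each other, and treated WT was the lowest. Mcm5 had 9.29, 15.1, 7.20 and 13.4 CPM, and Mcm6 had 38.0, 76.3, 36.2 and 85.6 CPM. All 5 thus had both KO libraries above both WT libraries. The KO-to-WT ratio of these 5 ran from 1.45 (Mcm3) to 2.01 (Mcm6) without fatty acids and from 1.86 (Mcm5) to 3.87 (Mcm4) with them. Untreated, Mcm6 fell just inside 2-fold once adjusted for GC content and length (log2 difference 0.92). The edgeR adjusted p was 0.0169 for Mcm4 and 0.0213 for Mcm6, and 0.0667 for Mcm2, 0.0933 for Mcm3 and 0.21 for Mcm5.

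The sixth subunit, Mcm7, had 30.4 CPM in untreated WT, 26.5 in untreated KO, 39.3 in treated WT and 29.0 in treated KO. Both KO libraries lay below both WT libraries, though not with library totals or on deposited FPKM, where the 2 genotypes interleave. The KO-to-WT ratio was 0.871 (0.824 to 0.921) untreated and 0.737 (0.701 to 0.776) with fatty acids, and stayed below 1 in both pairs under every scaling. The edgeR fit did not call it (adjusted p 0.671), and the difference between Mcm7 and the other subunits was not tested. Per length, Mcm7 was 9.99 to 11.2 FPKM in all 4 libraries, while the mean of the other 5 was 5.61 in untreated WT, 10.6 in untreated KO, 3.49 in treated WT and 10.9 in treated KO. Mcm7 therefore stood at 1.88 times that mean in untreated WT and 3.19 times in treated WT, but at 0.938 and 0.983 times in the KO libraries. Its share of the FPKM of all 6 was 27.3%, 15.8%, 39.0% and 16.4% in the order untreated WT, untreated KO, treated WT and treated KO. An intron of Mcm7 carries a microRNA cluster, and the sources used here do not say whether intronic reads were counted.

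**Figure D3:**
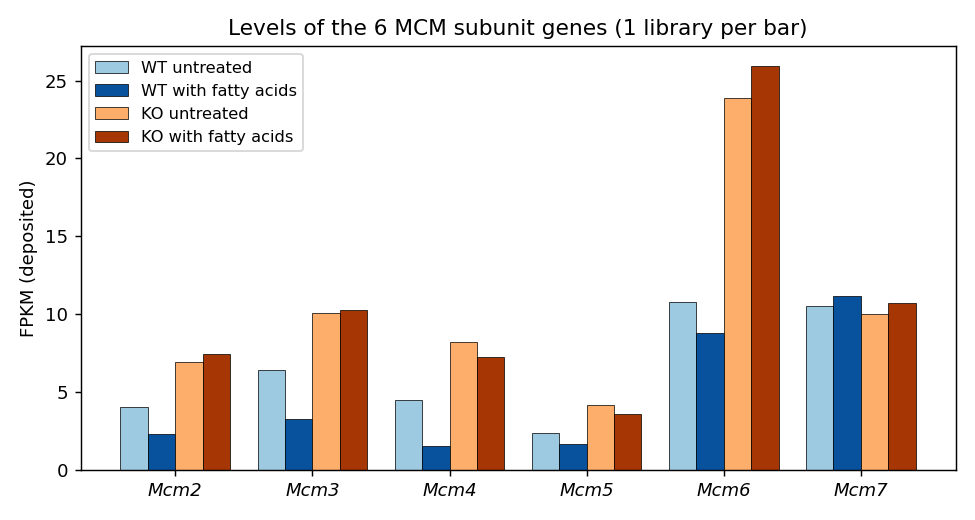
Deposited FPKM of the 6 MCM subunit genes, 1 bar per library, from 0. The orange KO bars stand above the blue WT bars for Mcm2, Mcm3, Mcm4, Mcm5 and Mcm6, with the widest gap in FPKM for Mcm6 (23.9 and 25.9 against 10.8 and 8.77 FPKM), while the 4 bars of Mcm7 lie between 9.99 and 11.2 FPKM.

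Cdt1 stood at 21.6 CPM in untreated WT, 20.3 in untreated KO, 16.5 in treated WT and 22.9 in treated KO, with KO-to-WT ratios of 0.942 (0.883 to 1.00) and 1.39 (1.30 to 1.49). Gmnn stood at 4.97, 6.67, 3.13 and 7.49 CPM in the same order. Its KO-to-WT ratio was 1.34 (1.19 to 1.52) untreated and 2.39 (2.07 to 2.77) with fatty acids, where WT was low, and the edgeR adjusted p was 0.268. The FPKM of Cdt1 over Gmnn was 1.94 in untreated WT and 2.35 in treated WT, against 1.36 and 1.37 in the KO libraries.

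In DNA synthesis, ribonucleotide reductase makes the deoxynucleotides, with Rrm2 as the small subunit whose level follows the cycle and Rrm1 as the catalytic subunit. Rrm2 had 4.85 CPM in untreated WT, 11.7 in untreated KO, 4.45 in treated WT and 11.3 in treated KO. Like Ccne1, it had 2 close WT libraries and 2 close, higher KO libraries. The ratios were 2.41 (2.15 to 2.70) and 2.54 (2.25 to 2.87), with an edgeR log2 difference of 1.31 and an adjusted p of 0.0287. Rrm1 was higher in KO by 1.45-fold and 1.97-fold, from 10.5 to 20.6 CPM over the libraries, and the edgeR adjusted p was 0.224. Tyms, the thymidylate synthase, had a KO-to-WT ratio of 0.927 (0.820 to 1.05) untreated and 1.97 (1.74 to 2.24) with fatty acids, just under 2-fold. Pcna had 106 CPM in untreated WT, 72.7 in untreated KO, 95.6 in treated WT and 100.3 in treated KO, a KO-to-WT ratio of 0.688 (0.666 to 0.710) and then 1.05.

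Of the late genes, Cdk1, the kinase of mitotic entry, showed the largest ratio between genotypes among the members past the filter with fatty acids. It had 79 reads in untreated WT, 270 in untreated KO, 27 in treated WT and 292 in treated KO, all under 1 FPKM. The 2 KO libraries agree within counting error, and both are above both WT libraries. The KO-to-WT ratio was 3.14 (2.44 to 4.09) untreated and 8.23 (5.54 to 12.7) with fatty acids, with an edgeR log2 difference of 2.32 and an adjusted p of 0.0238. Top2a, the topoisomerase that untangles replicated chromosomes, had 30, 79, 38 and 101 reads in the same order, with ratios of 2.42 (1.57 to 3.82) and 2.02 (1.38 to 3.02). The second reversed on log2(FPKM + 1) relative to the median gene, and the edgeR adjusted p was 0.614.

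The cyclins and markers of G2 and mitosis did not follow Cdk1. Mki67, the proliferation marker Ki-67, had 22 reads in untreated WT, 47 in untreated KO, 72 in treated WT and 16 in treated KO. Its highest library was thus treated WT, 5.91-fold above KO (3.41 to 10.9), and per length it never exceeded 0.0683 FPKM. Ccnb2, a partner of Cdk1, had 123 reads in untreated WT, 166 in untreated KO, 106 in treated WT and 82 in treated KO, without a common order by genotype. Ccna2 had 11 reads in untreated WT, 19 in untreated KO, 44 in treated WT and 43 in treated KO. Ccnb1 had 5, 38, 31 and 19 reads in the same order. Plk1, a mitotic kinase, had 20 reads in untreated KO and 0 in the other 3 libraries, where 0 reads allow up to 0.0293 to 0.0385 CPM. Ccna2, Ccnb1 and Plk1 lie below the filter and are in no count of members past the filter.

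Fatty acids against untreated were compared within each genotype. In WT, 2 of 29 members were higher by 2-fold or more with fatty acids (Ccnd2 and Mki67) and 3 lower (Cdkn1b, Mcm4 and Cdk1, the last reversed on log2(FPKM + 1) relative to the median gene), against 10.5% and 5.19% of all genes. In KO, 0 were higher and 5 lower (Ccnd2, Cdk6, Cdkn2c, Ccnb2 and Mki67), against 2.49% and 10.0% of all genes. The medians over the members were -0.12 in WT and 0.05 in KO, beside -0.02 and 0.07 over all genes. Mcm4 was 2.49-fold lower with fatty acids in WT (2.26 to 2.75) and 1.10-fold lower in KO (1.04 to 1.15). Mcm3 stayed within 2-fold, at a ratio of 0.585 (0.541 to 0.631) in WT and 1.02 (0.976 to 1.08) in KO. Cdk6 was 2.57-fold lower with fatty acids in KO (2.49 to 2.65), a log2 difference of -1.36 that was -0.60 after adjustment for GC content and length, and its ratio in WT was 1.02 (0.989 to 1.05). Myc was at a ratio of 1.46 (1.41 to 1.51) in WT and 0.626 (0.604 to 0.648) in KO.

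**Figure D4:**
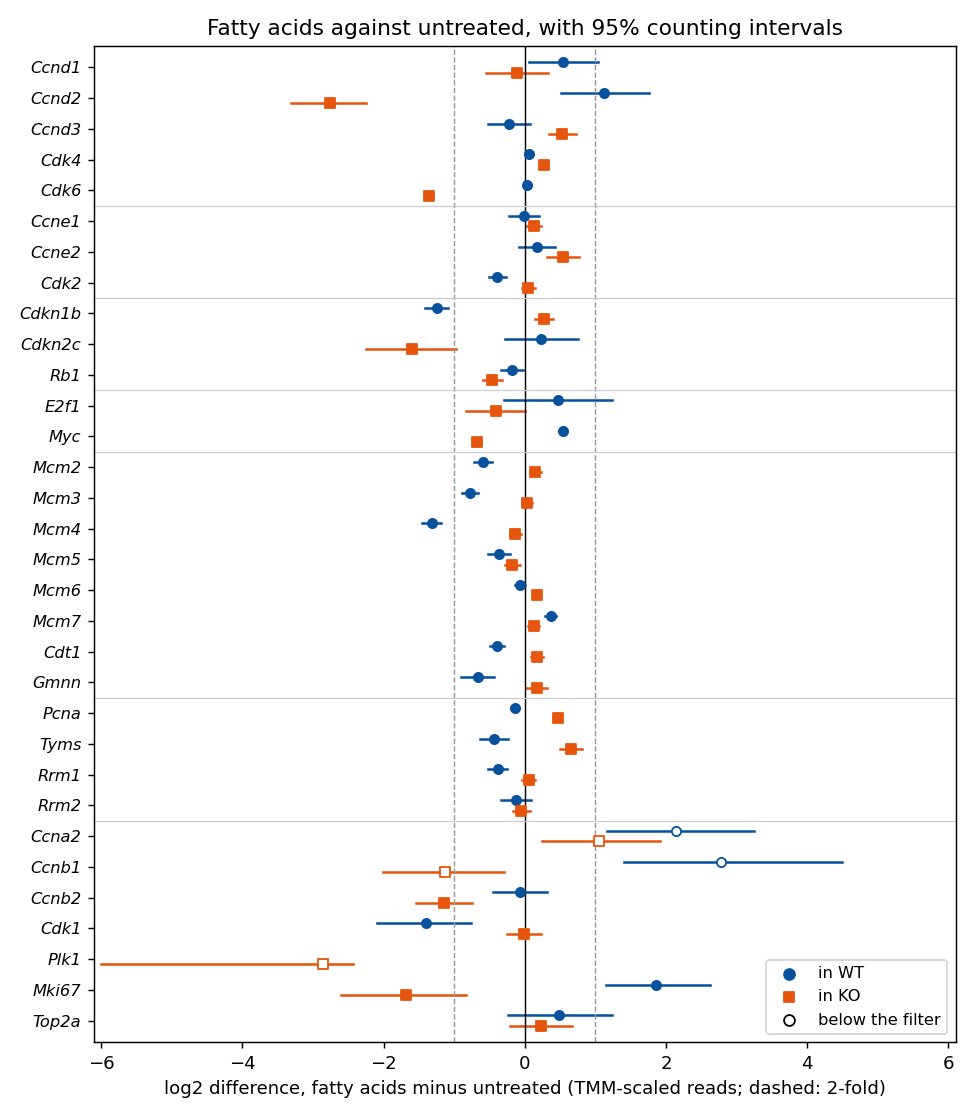
Log2 difference in TMM-scaled reads, fatty acids minus untreated, for each member, with 95% counting intervals. Blue circles are WT and orange squares KO, open symbols lie below the filter, dashed lines mark 2-fold, and the interval of Plk1 in KO has no lower end. For Ccnd2 and Mki67 the WT symbol lies above 1 and the KO symbol below -1.

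The response to fatty acids differed between genotypes by 2-fold or more for 10 of 29 members. It was higher in WT than in KO for 6 (Ccnd2, Cdk6, Cdkn2c, Myc, Ccnb2 and Mki67) and lower in WT for 4 (Cdkn1b, Mcm4, Tyms and Cdk1), against 16.9% and 8.0% of all genes. Each such value uses all 4 libraries, so it repeats the genotype differences above in another arrangement. With 1 library per group it could not be tested.

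Promoter sequences of the members were searched for the letters of E2F sites. RefSeq promoters on GRCm38.p6, 250 bases before to 50 after each start, were at hand for 24 of 32 members. The E2F octamers searched were TTTCGCGC, TTTGGCGC, TTTCCCGC and TTTGCCGC, on both strands. They occurred in 7 of 24 members (Cdk2, Mcm3, Mcm5, Mcm6, Mcm7, Cdt1 and Cdk1), or 29.2%, and in 2.60% of 27025 genes. The sequences below are those of called genes with an entry, and of Mcm7, each 5′ to 3′ on the gene's strand with the octamers in capitals. They are Mcm6 (chr1:128359656-128359955, minus strand), Mcm7 (chr5:138171834-138172133, minus strand), Cdk1 (chr10:69352863-69353162, minus strand), Ccne1 (chr7:38107441-38107740, minus strand) and Rrm2 (chr12:24708004-24708303, plus strand).
Mcm6: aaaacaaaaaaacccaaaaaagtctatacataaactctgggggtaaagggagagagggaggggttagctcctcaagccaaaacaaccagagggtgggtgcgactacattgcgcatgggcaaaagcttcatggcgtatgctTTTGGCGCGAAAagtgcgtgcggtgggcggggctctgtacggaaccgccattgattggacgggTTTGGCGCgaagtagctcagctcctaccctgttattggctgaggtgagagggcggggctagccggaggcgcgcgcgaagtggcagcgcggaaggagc
Mcm7: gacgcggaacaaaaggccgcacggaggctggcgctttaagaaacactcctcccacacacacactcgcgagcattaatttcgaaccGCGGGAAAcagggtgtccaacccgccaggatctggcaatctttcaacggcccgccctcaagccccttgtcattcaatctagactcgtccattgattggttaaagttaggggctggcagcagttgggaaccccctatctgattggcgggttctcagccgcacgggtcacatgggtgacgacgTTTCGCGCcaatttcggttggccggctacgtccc
Cdk1: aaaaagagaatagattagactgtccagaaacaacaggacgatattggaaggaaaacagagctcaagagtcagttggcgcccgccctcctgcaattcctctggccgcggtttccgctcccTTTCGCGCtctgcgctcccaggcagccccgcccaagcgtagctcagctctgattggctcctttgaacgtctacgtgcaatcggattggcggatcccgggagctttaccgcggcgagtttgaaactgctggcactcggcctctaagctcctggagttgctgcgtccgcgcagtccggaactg
Ccne1: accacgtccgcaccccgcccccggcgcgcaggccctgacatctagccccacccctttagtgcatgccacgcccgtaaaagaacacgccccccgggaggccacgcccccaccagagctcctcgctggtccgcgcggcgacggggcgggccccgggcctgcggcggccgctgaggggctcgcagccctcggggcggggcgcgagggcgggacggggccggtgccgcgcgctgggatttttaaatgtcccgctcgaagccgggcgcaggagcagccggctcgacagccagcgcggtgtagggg
Rrm2: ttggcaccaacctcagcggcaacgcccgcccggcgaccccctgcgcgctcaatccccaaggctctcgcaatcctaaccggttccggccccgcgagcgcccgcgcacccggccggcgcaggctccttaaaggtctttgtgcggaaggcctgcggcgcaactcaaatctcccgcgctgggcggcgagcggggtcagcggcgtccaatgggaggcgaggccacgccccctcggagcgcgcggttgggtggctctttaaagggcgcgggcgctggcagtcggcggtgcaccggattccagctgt
Mcm6 holds 3 matches, of which the 2 upstream ones overlap in 1 run, and Mcm7 holds 2, while Ccne1 and Rrm2 hold none in this window. Another RefSeq window of Mcm7 (chr5:138171217-138171516, minus strand), not printed, holds none. Whether the octamers relate to the differences between libraries was not tested. The CHR hexamers TTTGAA and TTCGAA, known from late cell cycle genes, occurred in 7 of 24 members (29.2%) and in 21.7% of all genes. The 7 were Mcm2, Mcm7, Ccnb2, Cdk1, Plk1, Mki67 and Top2a, and the late gene Ccnb1 had none in its window. CCAAT occurred in 18 of 24 (75.0%, against 41.1%) and the GC box GGGCGG in 21 of 24 (87.5%, against 38.2%), both strands counted. A match is a description of letters and not of binding.

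Other genes of the cycle were read from lists by function, beside the shares of all genes given above for KO against WT (10.2% higher and 7.10% lower untreated, 10.7% and 15.7% with fatty acids, 5.47% called by edgeR). Of 31 replication fork genes past the filter, 4 were higher in KO and 0 lower untreated (median log2 difference 0.17), and 13 were higher and 0 lower with fatty acids (median 0.65). Pold1, the catalytic subunit of polymerase delta, had 4.45 CPM in untreated WT, 16.8 in untreated KO, 2.44 in treated WT and 23.7 in treated KO. Its edgeR adjusted p was 8.27e-05, and Pole and Prim2 were also called, at 0.024 and 0.0367. Of 18 genes of origin recognition and helicase loading, 0 were past 2-fold untreated, and 2 were higher and 2 lower in treated KO. Cdc6, which loads the MCM ring with Cdt1, was among the lower ones, at 3.83 CPM in untreated WT, 2.43 in untreated KO, 6.43 in treated WT and 1.28 in treated KO. Of 18 nucleotide synthesis genes, 0 were past 2-fold untreated, and 4 were higher and 1 lower with fatty acids.

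Upstream regulators were mostly within 2-fold. Of 16 E2F, pocket protein and MuvB genes, 1 was higher in untreated KO, and with fatty acids 2 were higher and 2 lower. Among 2 further CDK inhibitors past the filter, Cdkn1a, which encodes p21, had 77.6 CPM in untreated WT, 83.9 in untreated KO, 91.7 in treated WT and 29.6 in treated KO, so 1 was lower with fatty acids and 0 untreated. Of 7 Myc partners and relatives, 3 were lower in treated KO and 0 untreated. Of 36 mitosis genes past the filter, 8 were higher and 0 lower in untreated KO, and 15 higher and 4 lower with fatty acids. That list spread widely at low counts: Racgap1 had 0 reads in treated WT and 2.14 CPM in KO, whereas Kif2c was 1.58 CPM in WT and 0.0488 CPM in KO. Of 17 ubiquitin ligase genes of the cycle, 2 were higher untreated and 1 with fatty acids, and 0 were lower. Of 21 other cyclins and their kinases, 0 were past the line untreated, and 1 was higher and 4 lower with fatty acids. The additive edgeR fit called 0 genes of these lists for genotype, with 1 to 8 genes per list at an unadjusted p under 0.05.

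**Figure D5:**
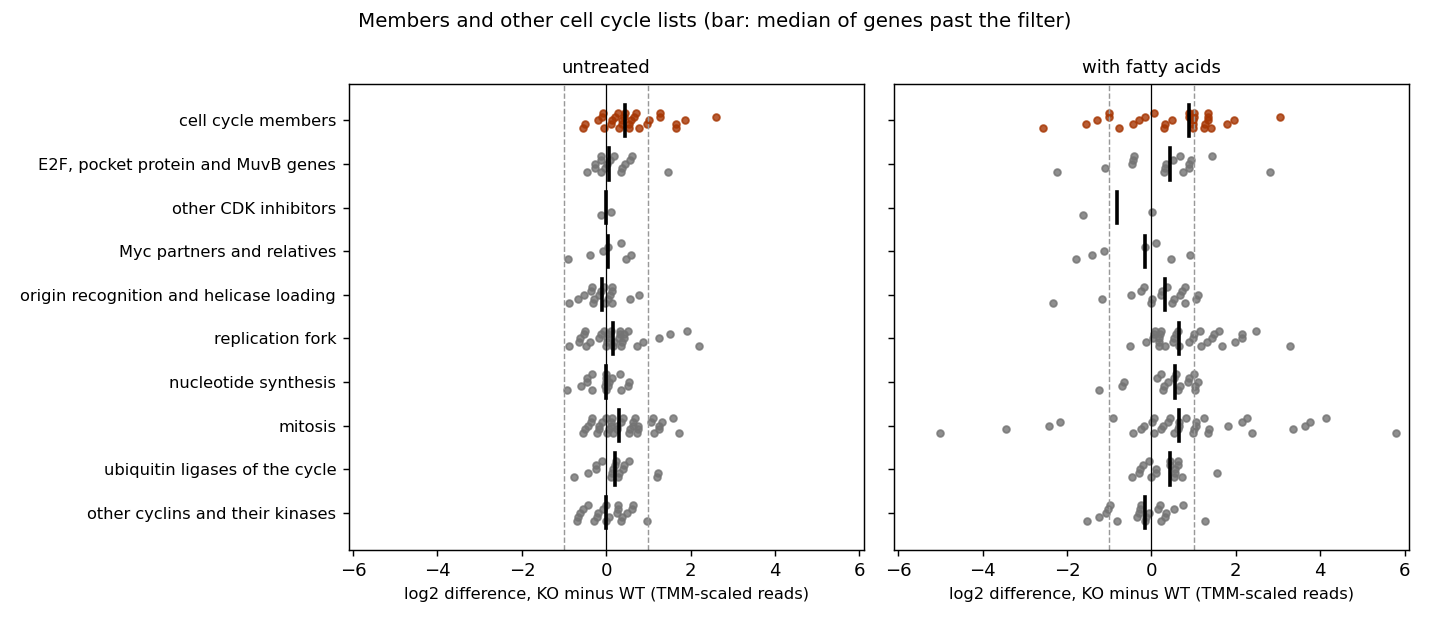
Log2 difference in TMM-scaled reads, KO minus WT, untreated (left) and with fatty acids (right), for the members and for 9 other lists, 1 point per gene past the filter, with the median as a bar. The member median lies at 0.45 and 0.89, the replication fork median at 0.17 and 0.65, and the mitosis list runs from -5.02 to 5.80 with fatty acids.

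Markers of liver cells also differed between the libraries, and their part in the differences above was not tested. The 7 hepatocyte markers had no common direction. Apoa1, Cps1 and Cyp2e1 had both KO libraries below both WT libraries, with edgeR adjusted p of 8.27e-05 for Cps1 and 0.0173 for Cyp2e1. Ttr, Hnf4a and Serpina1c had the opposite order, Ttr at 617 CPM in untreated WT, 1054 in untreated KO, 699 in treated WT and 1456 in treated KO (edgeR adjusted p 0.0882). Kupffer cell markers (10 of 10 past the filter) summed to 81.1 CPM in untreated WT, 130 in untreated KO, 235 in treated WT and 153 in treated KO. Sinusoidal endothelium markers (8 of 8) summed to 19.7, 61.4, 47.1 and 42.4 CPM in the same order, so neither sum had both KO libraries above both WT libraries as Ccne1 and Rrm2 did. Single markers did: Clec4f, a Kupffer cell lectin, had 1.86 CPM in untreated WT, 19.4 in untreated KO, 5.77 in treated WT and 20.4 in treated KO. Other Kupffer cell markers had the reverse order, such as Adgre1 (16.3, 10.8, 53.2 and 14.1 CPM) and Marco (10.6, 7.03, 64.7 and 7.64 CPM). Of the 10, edgeR called 1 higher in KO (Clec4f, adjusted p 0.000116) and 2 lower (Adgre1, 0.0304, and Marco, 0.0098). The sum of the stellate cell and fibroblast markers did have both KO libraries above both WT libraries. These markers summed to 2.60 CPM in untreated WT, 12.2 in untreated KO, 2.80 in treated WT and 9.79 in treated KO, and 3 of 9 passed the filter. Reln was the largest part of each sum (1.84, 8.67, 1.35 and 5.24 CPM). Of the 3 past the filter, edgeR called 1 higher in KO, Reln, and all 3 had an unadjusted p under 0.05. Lrat, Des and Col3a1 had 0 reads in both WT libraries. Acta2 (22, 24, 26 and 31 reads), Col1a1 (4, 27, 0 and 0) and Col1a2 (0, 0, 2 and 0) did not have the order of the sum. Cholangiocyte markers (3 of 6) summed to 20.7, 52.4, 41.9 and 39.5 CPM, with Krt7 and Cftr at 0 reads in every library. Of the 3, edgeR called 1 higher in KO, Spp1. T, B and NK cell markers (5 of 7) summed to 17.5 CPM in untreated WT, 11.3 in untreated KO, 34.3 in treated WT and 11.6 in treated KO, lower in both KO libraries. Most of each sum was Ptprc, at 14.4, 9.87, 28.1 and 10.2 CPM in the same order, and the rest had 0 to 208 reads each. Neutrophil markers (2 of 6) summed to 2.25 to 4.89 CPM, and erythroid markers (5 of 6) to 58.6 to 111 CPM. Of the 5 erythroid markers, edgeR called 1 higher in KO (Alas2) and 2 lower (Hbb-bs and Hbb-bt). It called 0 sinusoidal endothelium, T, B and NK cell or neutrophil markers for genotype.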

How the data were processed

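Total RNA of primary hepatocytes was made into stranded libraries, per the labels' protocols. The build was mm10, and StringTie 2.1.3b, HISAT2 2.1.0, Bowtie2, Trimmomatic 0.38 and FastQC 0.11.7 were used in unstated roles, per the submitters' processing notes. The sources used here do not state the counting rule or its strand setting, so overlapping and antisense genes cannot be told apart. The authors deposited whole read counts, not normalized, and FPKM, scaled by them to length and library, per the file headers. FPKM sums differed between libraries (539602 to 731758), and for Cdkn2c, Tyms and Ccnb1 the ratio of FPKM to counts differed between libraries by 1.22-fold to 1.25-fold. From the counts, CPM with TMM factors (0.875 to 1.10) were computed. Genes with 0.5 CPM or more in at least 1 library were kept, and 0 reads were set to 3 reads for ratios. Differences of 2-fold or more were counted.

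edgeR 4.0.16 (quasi-likelihood, additive, 4 libraries), DESeq2 1.42.0 and limma 3.58.1 were run in R 4.3.3, the rest in Python 3.11.15. Of the fits, only the main edgeR fit was run on simulated counts. The alternative edgeR fits, DESeq2, limma and the promoter search were not. The members and lists were chosen with earlier results of these data known. Values per library are given for members past 2-fold in a comparison and for cyclins and their kinases, and otherwise as ranges. Mcm5, Mcm7, Cdt1 and Pcna were added to these after their values were seen. Of other lists, up to 4 genes per comparison with the largest difference and at least 100 reads in the higher library could be named. Lrat, Des, Col3a1, Krt7 and Cftr are named outside this rule for their 0 reads. Acta2, Col1a1 and Col1a2 are named outside it because they lack the order of their list's sum. Alternatives were library totals, DESeq2 size factors, log2(FPKM + 1) as deposited or relative to the median of 5903 genes with FPKM of 5 or more in every library, a pseudocount of 0.1, a 1.5-fold rule, other filters and, chosen after seeing the data, an adjustment for GC content and length. Coordinates and promoters are from RefSeq on GRCm38.p6, which is mm10.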

Additional observations from a re-analysis of the deposited data

Results flagged for a closer look

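Ccnd2 went in opposite directions between genotypes in untreated cells and cells with fatty acids. Its log2 difference, KO minus WT, was 2.59 untreated and -1.29 with fatty acids, and its difference with fatty acids was 1.13 in WT and -2.76 in KO. These are the same 4 libraries in 2 arrangements, with 34, 223, 67 and 36 reads in untreated WT, untreated KO, treated WT and treated KO, and the difference was not tested, since each group has 1 library.

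Mki67 was higher with fatty acids in WT and lower in KO, with log2 differences of 1.86 and -1.68. It had 16 to 72 reads per library, and this difference was not tested either.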

How the results depend on the processing

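Of 696 member values (29 members, 4 comparisons and 6 other scalings), 628 kept their direction and side of the 2-fold line, 58 fell inside it, 8 passed it and 2 reversed. Log2 differences that reversed were that of Top2a, KO minus WT with fatty acids (-0.24), and that of Cdk1 with fatty acids in WT (0.10), both under log2(FPKM + 1) relative to the median gene. Ccne1 was past 2-fold for genotype under every scaling run, in both pairs, and so were Rrm2 untreated and Mcm3, Mcm4 and Mcm6 with fatty acids. Mcm7 stayed below 0 under every scaling, from -0.27 to -0.05 untreated and from -0.59 to -0.05 with fatty acids. Under library totals and deposited FPKM, however, its 4 libraries no longer fell in order by genotype.

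Counts of members that moved are given by setting, but not for every comparison, so a count left out may also have moved. Library totals, under which the median of all genes was 0.16 (KO minus WT untreated), 0.30 (with fatty acids) and -0.20 (fatty acids in WT), against 0.01, 0.03 and -0.02 with TMM, gave 3 lower in KO with fatty acids and 1 higher with fatty acids in WT. Of all genes, 1844 were then lower in KO with fatty acids and 1270 higher with fatty acids in WT, beside 2401 and 1598 with TMM. Library totals gave 18 members with both KO libraries above both WT libraries (36.3% of all genes), as did deposited FPKM (34.7%), and FPKM centred on the median gene gave 13 (17.8%). On log2(FPKM + 1) as deposited, 3 members were higher in KO untreated, 7 higher and 0 lower in KO with fatty acids, 0 higher with fatty acids in WT and 1 lower in KO. Of all genes, 415 were higher in KO untreated, 179 higher with fatty acids in WT and 374 lower in KO, beside 1558, 1598 and 1530 with TMM. The response was higher in WT than KO for 2 members and lower for 1, against 417 and 724 of all genes (2587 and 1222 with TMM). Relative to the median gene, the same counts were 3, 4 and 1, then 0 higher and 0 lower with fatty acids in WT, 1 lower in KO, and 2 and 0 for the response. Over all genes these counts were 412, 370 and 965, then 383 and 73, 567, and 1281 and 130. A 1.5-fold rule gave 12 higher in KO untreated, 6 lower with fatty acids in WT, 1 higher in KO and 9 with a lower response in WT. Without a filter, 4 members were higher with fatty acids in WT and 1 in KO. Ccnb1 and Plk1 were then also past 2-fold higher in KO untreated (log2 differences 2.81 and 2.62) and lower with fatty acids in KO (-1.13 and -2.86). A filter at FPKM 1 left 3 higher in KO untreated, 2 lower in KO with fatty acids, 0 higher with fatty acids in WT and 2 lower in KO. Counts over all genes are not given here for the 1.5-fold rule and these filters, so no share stands beside them. Adjusted for GC content and length, chosen after seeing the data, 3 members were lower with fatty acids in KO, against 1196 of all genes so adjusted. For KO against WT, the additive fit with a filter at 10 reads called 0 of 32 members. EdgeR on library totals called 7 of 29, and limma on log2(FPKM + 1) called 7 of 22. The shares of all genes called in these fits are not given here, so the counts cannot be compared between fits. Apart from the limit that log2(FPKM + 1) sets for genes under 1 FPKM, the causes were not tested.

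No paired analysis was possible because each group has 1 library. Leaving out a library leaves no residual degree of freedom, so no such fit was made. Depth limits Ccna2, Ccnb1, Plk1, Mki67 and Top2a, with 0 to 101 reads. It also limits Ccnd1 (63 to 89 reads), Cdkn2c (30 to 83) and E2f1 (28 to 111), and the low libraries of Ccnd2 (34 to 223), Ccnb2 (82 to 166) and Cdk1 (27 to 292).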
